A study of Homo sapiens with 6 samples.

Results

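YAP1, WWTR1 (also called TAZ), CCN1, CCN2, ANKRD1, AMOTL2, AJUBA, LATS2, CRIM1 and AXL are genes of the YAP and TEAD pathway, and their expression was followed in Rh30 rhabdomyosarcoma cells treated with an inhibitor of ETS transcription factors. The 10 genes were taken by symbol from the 35268 named genes of the expression table. They were chosen from the same comparison of drug and vehicle that is described here, so their values, errors and calls are given as a description, with no p-value and no reading of the calls. Rh30 is an established cell line of fusion-positive rhabdomyosarcoma, a tumor of cells that resemble immature skeletal muscle. The inhibitor is a small molecule called YK in the deposited table, and that name is used for it here, while the plots carry its full name on their axes. Cells received 1 µM YK dissolved in DMSO, or DMSO alone as the vehicle control, for 24 hours, and polyadenylated RNA was sequenced from 3 libraries per group. The study used these libraries to ask how the drug changes gene expression in this tumor type. The labels do not state that the libraries came from separate cultures, so the spread between them, which every p-value here measures, may be technical.

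The Hippo pathway restrains growth through a kinase cascade in which STK3 and STK4 activate the kinases LATS1 and LATS2, and these phosphorylate the coactivators YAP1 and WWTR1 so that they stay out of the nucleus. When the cascade is quiet, YAP1 and WWTR1 enter the nucleus, bind the DNA-binding TEAD factors and raise transcription of genes such as CCN1, CCN2 and ANKRD1. The pathway also feeds back on itself, since LATS2, AMOTL2 and AJUBA are both targets of the coactivators and regulators of the cascade. In skeletal muscle precursors YAP1 is known to promote proliferation and to hold back differentiation, and its activity depends largely on where the protein lies in the cell, which RNA levels do not show.

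Values are normalized counts, that is reads per gene scaled by 1 factor for every gene of a library. The summed values of the DMSO libraries corresponded to 16724650, 20771226 and 24677433 times their own smallest value above 0 in replicates 1, 2 and 3, and those of the YK libraries to 23230675, 18752655 and 19876724 times, which serves as an estimate of sequencing depth. Of the 6 libraries, DMSO replicate 1 was the least like the rest. Its mean Pearson correlation with them across the 13930 genes tested was 0.98881, against 0.99227 or more for each of the other libraries. Mitochondrial genes held 6.05% of its summed values, against 4.99% in DMSO replicate 2, 4.93% in DMSO replicate 3 and 4.74%, 5.03% and 4.79% in the YK libraries. Log2 differences and counts of calls for the pathway genes are therefore given with and without this library.

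Markers of skeletal muscle and of fusion-positive rhabdomyosarcoma were strongly expressed. The 9 markers summed to between 93535 and 107937 normalized counts per library, and MYOD1, the master regulator of muscle fate, was the most abundant of them. MYF5 was the exception, at 0 in each DMSO library. FOXO1 is a part of the PAX3-FOXO1 fusion, and its counts do not separate reads of the fusion from those of intact FOXO1. Of the 8 markers tested from this list, limma called 0 higher and 0 lower with all libraries. At an unadjusted p under 0.05 from limma there were 2 higher (MYOG and DES) and 1 lower (FOXO1). Over all genes tested, 7.69% were higher and 11% lower at that unadjusted p, and 1.26% and 2.15% at an adjusted p under 0.05. Markers named for a change here were picked after their values were seen. Every drug-treated library was above every vehicle library for MYOG and DES, with log2 differences of 0.23 and 0.14, or 0.08 for each without DMSO replicate 1, and below for FOXO1. FGFR4, CDH15 and FOXO1 had log2 differences of -0.12, -0.03 and -0.25 with all libraries (limma adjusted p = 0.281, 0.898 and 0.128). They passed without DMSO replicate 1, at -0.17, -0.14 and -0.14 (limma adjusted p = 0.00285, 0.0106 and 0.0471). CDH15 passed in only 1 of 15 alternative fits. Its log2 difference was positive without DMSO replicate 2 or 3 (0.04 and 0.02) and with quantile normalization (0.02). FGFR4 and FOXO1 also passed with the trend on GC content and exon length removed (limma adjusted p = 0.0107 and 0.0182), and FOXO1 without DMSO replicate 2 (log2 difference -0.31, limma adjusted p = 0.0485). Leukocyte markers summed to 2.52, 1.998 and 3.34 normalized counts in DMSO replicates 1, 2 and 3 and to 5.14, 6.52 and 13.0 in YK replicates 1, 2 and 3, with ITGAM as the most abundant, and none of them had enough counts to be tested. Of these markers, CD68 was at 0 in every library. Epithelial markers summed to 131.1, 130.9 and 141.1 in the DMSO libraries and to 176.5, 130.4 and 135.1 in the YK libraries, in the same order, with KRT5 at 0 in every library and EPCAM as the most abundant. Endothelial markers summed to 317.7, 280.8 and 235.5 in DMSO replicates 1, 2 and 3 and to 221.1, 227.1 and 252.1 in YK replicates 1, 2 and 3, most of it from TEK. TEK was below its vehicle libraries in every drug-treated library and KDR, which had few counts, above them. Neither passed with all libraries or in an alternative fit, with log2 differences of -0.38 and 0.71, or -0.26 and 0.79 without DMSO replicate 1 (limma adjusted p = 0.128 and 0.332 with all libraries). The 5 fibroblast markers summed to 1053, 1065 and 973 normalized counts in DMSO replicates 1, 2 and 3 and to 1306, 1292 and 1220 in YK replicates 1, 2 and 3. COL1A1, a collagen chain and the most abundant of the 5, was the only one called with all libraries, with a log2 difference of 0.34, or 0.28 without DMSO replicate 1 (limma, Benjamini-Hochberg adjusted p = 0.0375 over all genes tested). That call was lost in 6 of 15 alternative fits. It was lost without DMSO replicate 3 or YK replicate 1, 2 or 3, at limma adjusted p-values of 0.0927, 0.213, 0.190 and 0.127, with a replicate block (0.0812) and with eBayes run without a trend (0.145), in a range over the 15 fits from 0.00161 to 0.213. The groups overlapped for PDGFRA and LUM, and the COL1A2 mean was under the threshold for testing. PDGFRA did not pass with all libraries (log2 difference 0.27, limma adjusted p = 0.2497) and passed without DMSO replicate 1 (log2 difference 0.42, limma adjusted p = 2.79e-04) and with the GC and length trend removed (limma adjusted p = 0.0366). Without DMSO replicate 3 the PDGFRA log2 difference was 0.17 (limma adjusted p = 0.515). DCN stayed at 1.26 normalized counts or less in every library. The part of these markers in the values that follow was not tested, and in RNA from whole cultures fewer cells of a kind and less RNA per cell cannot be told apart.

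YAP1, the coactivator that gives the pathway its name, lies on the plus strand at chr11:102110447-102233424 (hg38, GENCODE annotation). It had 1581, 1560 and 1641 normalized counts in DMSO replicates 1, 2 and 3 and 1461, 1514 and 1419 in YK replicates 1, 2 and 3. All drug-treated libraries lay below all vehicle libraries, by a narrow margin. The means were 1594 ± 41.9 and 1464 ± 47.6 (SD, n = 3 each), a log2 difference of -0.12 with a standard error of 0.06 and a 95% interval from -0.26 to 0.01. Log2 differences throughout are YK minus DMSO on log2(normalized count + 1).

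WWTR1, the paralog of YAP1 with the same TEAD partners, lies on the minus strand at chr3:149517235-149736714. It had 1823, 1529 and 1625 normalized counts in DMSO replicates 1, 2 and 3 and 1448, 1542 and 1437 in YK replicates 1, 2 and 3. The groups overlapped, since YK replicate 2 was above DMSO replicate 2, and DMSO replicate 1 was the highest library. The log2 difference was -0.17 ± 0.07 (standard error), and it was -0.10 without DMSO replicate 1. For YAP1 the value without that library was -0.13.

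CCN1 (CYR61) and CCN2 (CTGF) encode secreted matricellular proteins and are the usual readouts of YAP1 and WWTR1 activity. CCN1 lies on the plus strand at chr1:85580761-85584589 and CCN2 on the minus strand at chr6:131948176-131951372. CCN1 had 1268, 1441 and 1351 normalized counts in DMSO replicates 1, 2 and 3 and 1639, 1744 and 1778 in YK replicates 1, 2 and 3. CCN2 had 243.4, 271.8 and 277.2 in the DMSO libraries and 402.7, 418.4 and 405.2 in the YK libraries, in the same order. For both genes every drug-treated library was above every vehicle library. The log2 difference of CCN1 was 0.35 ± 0.07 (standard error, 95% interval from 0.20 to 0.49), or 0.30 without DMSO replicate 1. That of CCN2 was 0.63 ± 0.09 (95% interval from 0.43 to 0.83), or 0.57 without DMSO replicate 1. The mean level of CCN2 in drug-treated cells was 1.55 times that in vehicle-treated cells, and the ratio for CCN1 was 1.27.

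ANKRD1 encodes an ankyrin repeat protein of striated muscle that acts in the sarcomere and as a transcriptional cofactor, and lies on the minus strand at chr10:90912096-90921087. It had 108.4, 114.9 and 114.4 normalized counts in DMSO replicates 1, 2 and 3 and 188.5, 173.9 and 181.1 in YK replicates 1, 2 and 3. The vehicle libraries lay close together and all drug-treated libraries were well above them. This was the largest log2 difference among the 10 genes, at 0.68 ± 0.12 (standard error, 95% interval from 0.43 to 0.93), and the ratio of the means was 1.61. Without DMSO replicate 1 the log2 difference was 0.65. ANKRD1 was also the gene with the fewest counts of the 10, and its standard error was the widest.

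The promoters of CCN2 and ANKRD1 are shown because these genes had the largest differences, and that of YAP1 because it encodes the coactivator itself. Each sequence is the 250 bases before the transcription start, 5′ to 3′ on the gene's own strand, from RefSeq on GRCh38.p14. Capitals mark the TEAD motif GGAATG, which was searched on both strands, so also as CATTCC. The windows are chr6:131951373-131951622 for CCN2 (minus strand), chr10:90921088-90921337 for ANKRD1 (minus strand) and chr11:102110197-102110446 for YAP1 (plus strand).
CCN2: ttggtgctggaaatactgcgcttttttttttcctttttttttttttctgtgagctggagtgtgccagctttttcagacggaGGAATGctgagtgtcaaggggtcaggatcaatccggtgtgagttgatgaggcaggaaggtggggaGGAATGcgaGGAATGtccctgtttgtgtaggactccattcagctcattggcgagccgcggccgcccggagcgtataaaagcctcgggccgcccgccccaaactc
ANKRD1: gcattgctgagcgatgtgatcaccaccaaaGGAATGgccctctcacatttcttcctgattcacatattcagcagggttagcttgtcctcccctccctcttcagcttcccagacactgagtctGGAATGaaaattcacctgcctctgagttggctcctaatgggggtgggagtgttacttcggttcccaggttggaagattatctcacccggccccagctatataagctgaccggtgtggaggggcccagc
YAP1: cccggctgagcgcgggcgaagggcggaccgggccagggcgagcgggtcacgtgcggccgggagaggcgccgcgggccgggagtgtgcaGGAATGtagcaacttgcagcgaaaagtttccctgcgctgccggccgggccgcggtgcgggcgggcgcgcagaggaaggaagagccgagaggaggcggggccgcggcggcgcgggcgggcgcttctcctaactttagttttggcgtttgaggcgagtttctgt

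RefSeq promoters were in hand for 8 of the 10 genes, and CCN1 and CRIM1 had no entry in the set of promoters used here. In the window from 250 bases before to 50 bases after the start, CCN2 had 3 matches to the TEAD motif, beginning at positions -169, -104 and -95 counted from the start, and the last 2 of them were 3 bases apart. ANKRD1 had 2 matches, at -220 and -128. YAP1 had 1 match at -162, and LATS2 had 1 match after the start, at 10. All of them read GGAATG on the gene's own strand. WWTR1, AMOTL2, AJUBA and AXL had no match in this window, and for WWTR1 and AMOTL2 the RefSeq start lies inside the GENCODE gene. Of 27305 promoters of the same length, 14.0% held at least 1 match, 1.37% at least 2 and 0.146% at least 3. Among the 10946 promoters of genes tested here the shares were 10.8%, 0.886% and 0.0910%. The AP-1 motif was searched as TGANTCA with any base at the center, a pattern that reads the same on both strands. It matched once, in ANKRD1 at -195, where the letters are TGATTCA. This pattern was present in 7.76% of all promoters and 4.37% of those of genes tested. The CArG box of SRF, present in 1.28% of all promoters and 1.09% of those of genes tested, had no match in the 8 windows. A match shows that these letters are present, not that a factor was bound there. The absence of a match holds for this window only, since sequence outside it was not searched.

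**Figure D1:**
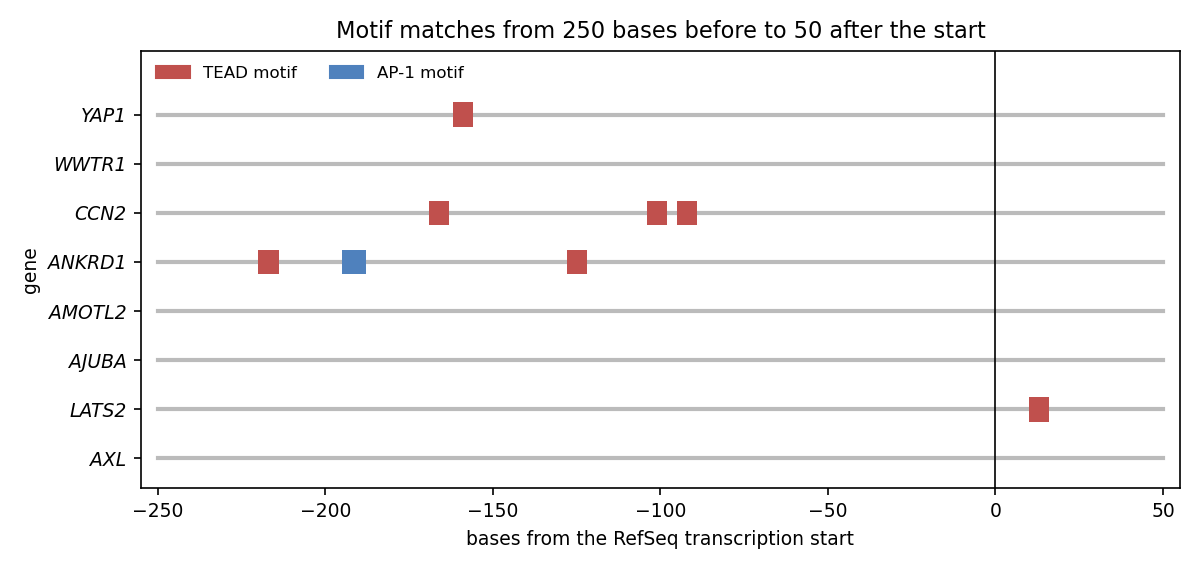
Matches to the TEAD motif (red) and the AP-1 motif (blue) along the promoters of 8 genes, with the distance in bases from the RefSeq transcription start on the horizontal axis and 1 grey line per gene from 250 bases before to 50 bases after it. CCN2 has 3 TEAD matches and ANKRD1 has 2, all before the start, and the only match of LATS2 lies after it.

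AMOTL2, AJUBA and LATS2 are targets that act back on the cascade. AMOTL2, an angiomotin family scaffold that binds YAP1 and holds it in the cytoplasm, lies on the minus strand at chr3:134355347-134375479. It had 1758, 2093 and 1868 normalized counts in DMSO replicates 1, 2 and 3 and 2471, 2580 and 2424 in YK replicates 1, 2 and 3. The drug-treated libraries were all above the vehicle libraries and lay closer together. The log2 difference was 0.39 ± 0.07 (standard error, 95% interval from 0.24 to 0.54), and it was 0.33 without DMSO replicate 1.

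AJUBA, a LIM domain protein that binds LATS kinases and limits their activity, lies on the minus strand at chr14:22971177-22982551. It had 2857, 3298 and 3134 normalized counts in DMSO replicates 1, 2 and 3 and 3484, 3451 and 3321 in YK replicates 1, 2 and 3. The groups were barely separated, with the highest vehicle library just under the lowest drug-treated library. The log2 difference was 0.14 ± 0.06 (standard error, 95% interval from 0.01 to 0.28), and it was 0.09 without DMSO replicate 1, the lowest of the vehicle libraries for this gene.

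LATS2, a kinase that phosphorylates YAP1 and WWTR1, lies on the minus strand at chr13:20973036-21061586. It had 1471, 1451 and 1499 normalized counts in DMSO replicates 1, 2 and 3 and 1631, 1673 and 1523 in YK replicates 1, 2 and 3. Here the vehicle libraries were tightly grouped, and YK replicate 3 was only just above them. The log2 difference was 0.13 ± 0.06 (standard error), with a 95% interval from -0.01 to 0.26, and it was 0.12 without DMSO replicate 1.

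CRIM1 and AXL are cell surface targets. CRIM1, a transmembrane protein with cysteine-rich repeats that binds bone morphogenetic proteins, lies on the plus strand at chr2:36355778-36551135. It had 828.4, 787.4 and 729.7 normalized counts in DMSO replicates 1, 2 and 3 and 828.6, 905.2 and 895.5 in YK replicates 1, 2 and 3. DMSO replicate 1 and YK replicate 1 were nearly level, so the groups touched without crossing. The log2 difference was 0.17 ± 0.08 (standard error, 95% interval from 0.00 to 0.33), and it was 0.21 without DMSO replicate 1, the highest of the vehicle libraries for this gene.

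AXL, a receptor tyrosine kinase of the TAM family, lies on the plus strand at chr19:41219223-41261766. It had 1398, 1692 and 1621 normalized counts in DMSO replicates 1, 2 and 3 and 1901, 2011 and 1830 in YK replicates 1, 2 and 3. All drug-treated libraries were above all vehicle libraries, and DMSO replicate 1 was clearly the lowest of the 6. The log2 difference was 0.29 ± 0.08 (standard error, 95% interval from 0.12 to 0.45), and it was 0.21 without that library.

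**Figure D2:**
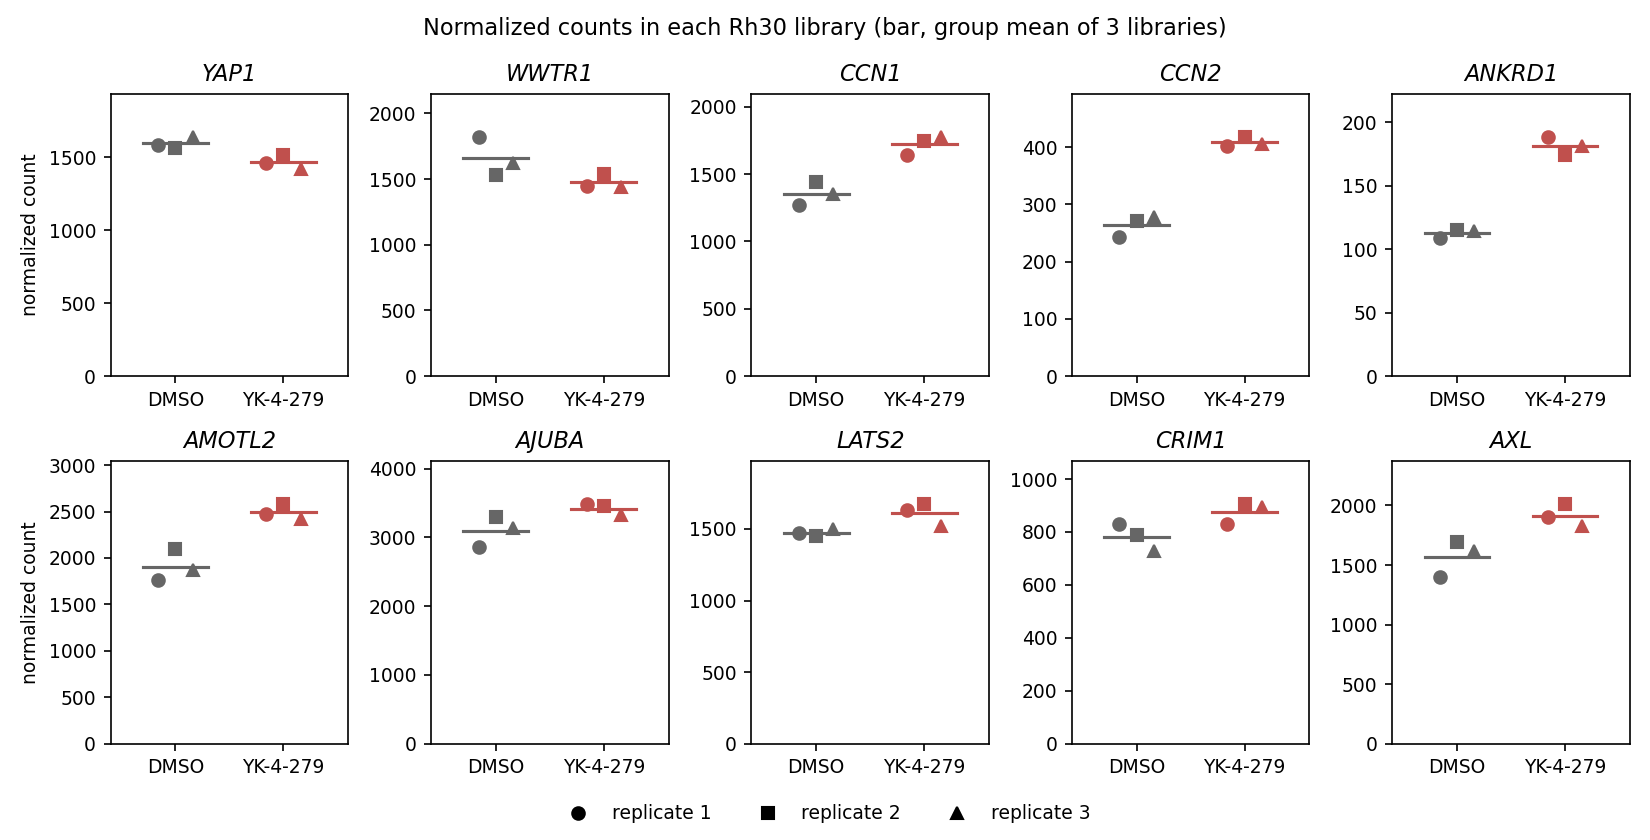
Normalized counts (vertical axis, starting at 0) of the 10 genes in 3 DMSO libraries (grey) and 3 YK libraries (red), with 1 panel per gene, a symbol for each replicate number and a bar at the group mean. The groups are separated most widely for CCN2 and ANKRD1, and they overlap for WWTR1.

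DMSO replicate 1 was the lowest vehicle library for 6 of the 10 genes (CCN1, CCN2, ANKRD1, AMOTL2, AJUBA and AXL), the highest for 2 (WWTR1 and CRIM1) and in between for the other 2. The 10 log2 differences had a median of 0.23 with all libraries and 0.21 without this one, and 8 were positive. Over all 13930 genes tested the medians were -0.01 and -0.01, and 6684 differences were positive. Every drug-treated library was above every vehicle library for 8 of the 10 genes, and below for 1, YAP1. Over all genes tested these shares were 10.9% above and 15.1% below. Since the genes were chosen from this comparison, nothing is read from these counts.

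**Figure D3:**
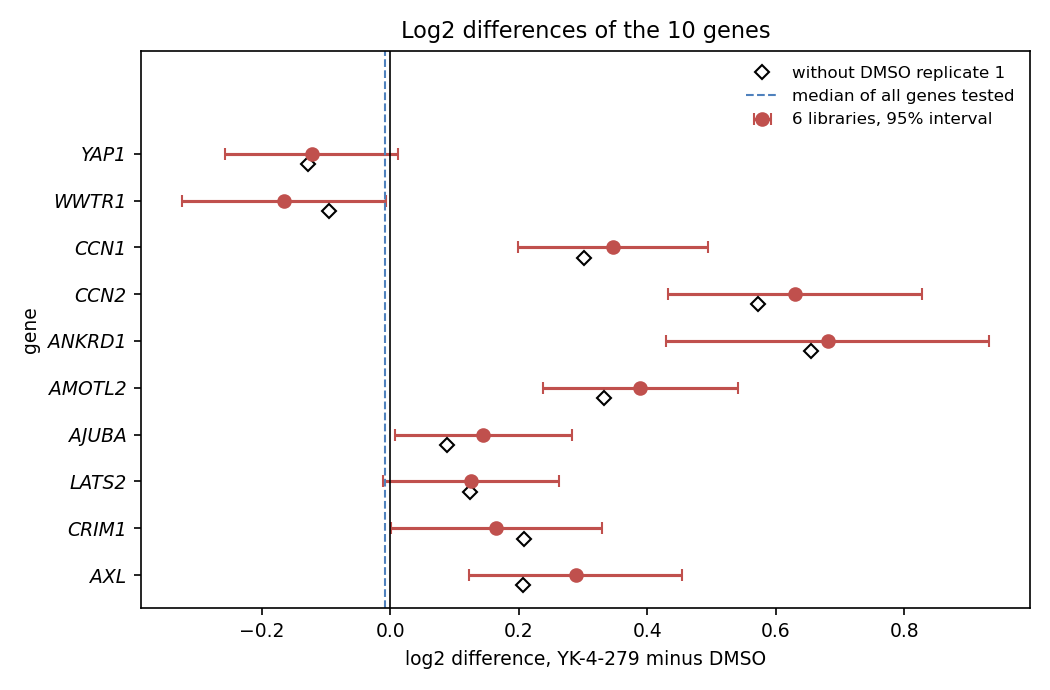
Log2 differences between YK and DMSO (horizontal axis) for the 10 genes, with 95% intervals from limma over 6 libraries (red) and the value without DMSO replicate 1 (open diamonds). The dashed line is the median of all genes tested, -0.01, and ANKRD1 and CCN2 lie farthest to its right, at 0.68 and 0.63.

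In limma's fit across all 13930 genes tested, 176 genes (1.26%) were higher and 299 (2.15%) were lower in drug-treated cells at a Benjamini-Hochberg adjusted p under 0.05. CCN1, CCN2, ANKRD1 and AMOTL2, 4 of the 10 genes, were among the 176. Without DMSO replicate 1 the fit called 644 genes (4.62%) higher and 1179 (8.46%) lower, and 6 of the 10 genes were among the higher ones, CRIM1 and AXL in addition. Leaving out another library gave fewer calls in most cases. Without DMSO replicate 2 or 3 there were 264 or 100 genes higher and 412 or 142 lower, with 5 or 3 of the 10 genes among the higher ones. Without YK replicate 1, 2 or 3 there were 15, 16 or 28 genes higher and 4, 7 or 18 lower, with 0, 0 or 1 of the 10 genes among the higher ones. Quantile normalization shifted the split between the directions, to 132 genes higher and 145 lower. The choice of the genes used the same comparison, so these counts describe the fit and are no evidence about the genes.

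Levels of different genes were compared per kilobase of merged exons. In DMSO-treated cells AJUBA had the highest level, 526.1 ± 37.8 normalized counts per kilobase (SD, n = 3), followed by CCN1 at 366.0 ± 23.3. AXL (305.9 ± 29.8) and AMOTL2 (294.2 ± 26.4) came next, and their libraries overlapped. LATS2 (262.6 ± 4.27) and YAP1 (252.6 ± 6.64) also overlapped, whereas WWTR1 (198.6 ± 18.0) was below YAP1 in every library. CCN2 (113.0 ± 7.78) and CRIM1 (107.5 ± 6.82) overlapped as well, and ANKRD1 was lowest at 62.9 ± 2.01. The order of the 10 means was the same without DMSO replicate 1, with AJUBA at 546.5, AXL at 322.7, AMOTL2 at 305.7, WWTR1 at 188.8 and CCN2 at 117.4 normalized counts per kilobase.

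In YK-treated cells the order per kilobase changed only between neighbors. AMOTL2 had 384.6 ± 12.3 and AXL 372.8 ± 17.8 normalized counts per kilobase, still with overlapping libraries. CCN2 reached 174.8 ± 3.59, level with WWTR1 at 176.7 ± 6.91, and it stood clear of CRIM1 at 120.6 ± 5.74. AJUBA remained highest at 580.9 ± 14.7 and ANKRD1 lowest at 101.2 ± 4.09. Length correction does not remove differences in how well genes are captured and mapped.

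**Figure D4:**
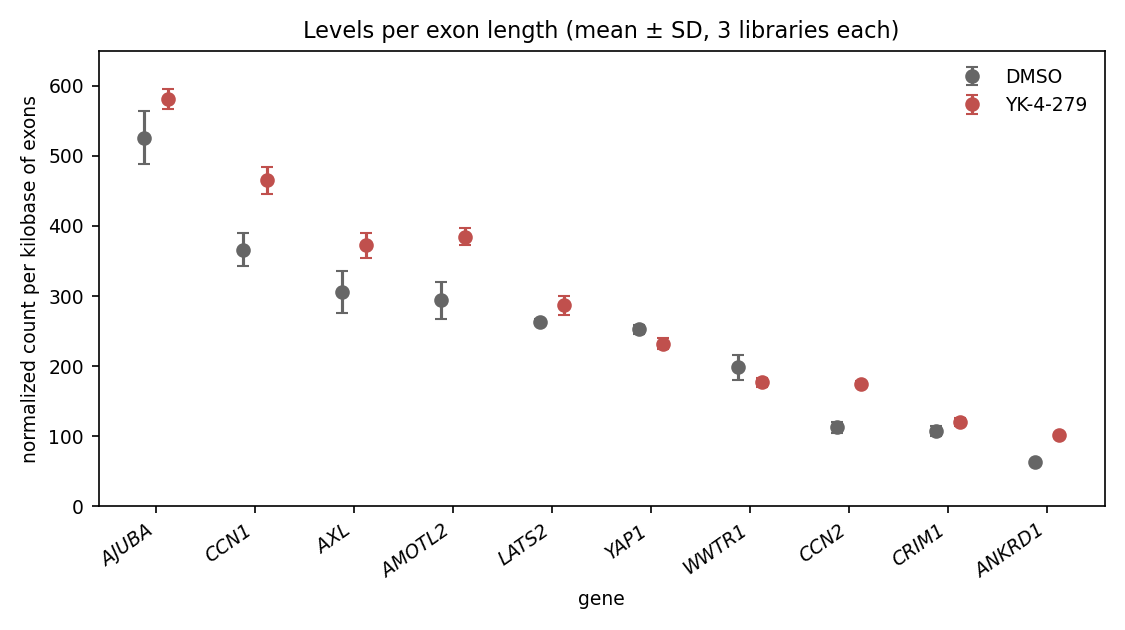
Normalized counts per kilobase of exons (vertical axis, starting at 0) for the 10 genes, ordered by their level in DMSO, as the mean ± SD of 3 DMSO libraries (grey) and 3 YK libraries (red). AJUBA is highest in both groups, and CCN2 meets the level of WWTR1 in drug-treated cells.

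The other genes of the pathway were taken from 7 lists written by function, 65 genes in all. Of these, 55 had a mean of at least 10 normalized counts and were tested. The lists were written with earlier results of these data known, so p-values and calls for their genes are no independent test. In limma's fit, with p-values adjusted over all genes tested, 3 of the 55 were higher (FAT4, CCDC80 and MYOF) and 0 were lower, where 1.26% of all genes tested were higher and 2.15% lower. At an unadjusted p under 0.05 from limma there were 8 higher and 5 lower, where 1071 (7.69%) and 1529 (11%) of all genes tested were. Counts of this size for the lists below are to be read against the same shares, which no list was tested against. The median log2 difference of the 55 genes was 0.00, or 0.03 without DMSO replicate 1, beside -0.01 for all genes tested in both cases, with 28 positive and 27 negative values. Without DMSO replicate 1 the fit called 7 higher and 5 lower, where the shares over all genes tested were 4.62% and 8.46%. The 5 lower ones were MOB1A, DCHS1, AMOT, LLGL1 and TYRO3, of which MOB1A, DCHS1 and AMOT are named after their values were seen. DCHS1 and AMOT had log2 differences of -0.13 and -0.18 with all libraries (limma adjusted p = 0.341 and 0.133) and of -0.17 and -0.13 without DMSO replicate 1 (limma adjusted p = 0.0285 and 0.0398), and each passed in 2 of 15 alternative fits. Without YK replicate 1, 2 or 3 the fit called 0 of the 55 in either direction, and without DMSO replicate 3 it called 2 higher.

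The TEAD factors bring YAP1 and WWTR1 to DNA, and the VGLL proteins compete for the same partner. Of the 8 genes in this list 7 were tested, and limma's fit called 0 higher and 0 lower at an adjusted p under 0.05, with 2 higher and 0 lower at an unadjusted p under 0.05. It called 1 higher, VGLL3, without DMSO replicate 1. TEAD1 had 5306, 4772 and 4618 normalized counts in DMSO replicates 1, 2 and 3 and 4968, 5029 and 5069 in YK replicates 1, 2 and 3. The drug-treated libraries of TEAD1 lay within the range of the vehicle libraries, with a log2 difference of 0.04 and a 95% interval from -0.09 to 0.17 (limma, adjusted p = 0.782). The 95% intervals of the log2 differences were -0.16 to 0.13 for TEAD2, -0.07 to 0.31 for TEAD3 and -0.11 to 0.24 for TEAD4, and the groups overlapped for each of them. The log2 differences of TEAD1, TEAD2, TEAD3 and TEAD4 without DMSO replicate 1 were 0.10, -0.03, 0.04 and -0.03. VGLL4, a repressor that competes with YAP1 for TEAD factors, was at 744.0 ± 50.4 in DMSO and 864.7 ± 19.0 normalized counts in YK (SD, n = 3 each). All its drug-treated libraries were above its vehicle libraries, but it did not pass (log2 difference 0.22, or 0.16 without DMSO replicate 1, limma adjusted p = 0.133), except with the trend on GC content and length removed (limma adjusted p = 0.0361, range over all alternatives 0.0361 to 0.426). VGLL3, which had the highest mean of the list, had a log2 difference of 0.06 (limma adjusted p = 0.669), and it passed only without DMSO replicate 1 (log2 difference 0.12, limma adjusted p = 0.0395) and with the GC and length trend removed (limma adjusted p = 0.0168), in a range over all alternatives from 0.0168 to 0.918. Per kilobase in DMSO, TEAD4 (610.2 ± 64.5), TEAD2 (535.9 ± 26.3) and TEAD1 (457.8 ± 33.7 normalized counts) were above YAP1 and WWTR1, and TEAD3 (211.4 ± 20.2) was near WWTR1.

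The kinases and adaptors of the Hippo core were all measured, and limma called 0 of 12 higher and 0 lower at an adjusted p under 0.05, with 0 higher and 2 lower at an unadjusted p under 0.05. Their median log2 difference was -0.01, or 0.03 without DMSO replicate 1, when 1 gene was called higher and 1 lower. The lower one was MOB1A, an adaptor that binds LATS kinases, which is described after its values were seen. It had 6748, 5754 and 5829 normalized counts in DMSO replicates 1, 2 and 3 and 5067, 5191 and 5061 in the YK libraries, in the same order. Its drug-treated libraries were all below its vehicle libraries, with a log2 difference of -0.26 (limma adjusted p = 0.0505), or -0.18 without DMSO replicate 1 (limma adjusted p = 8.50e-04). It passed in 5 of 15 alternative fits, in a range of limma adjusted p-values from 8.50e-04 to 0.249. The higher one was TAOK1, a kinase upstream of STK3 and STK4, also described after its values were seen, with a log2 difference of 0.05, or 0.13 without DMSO replicate 1 (limma adjusted p = 0.725 and 0.0208). TAOK1 passed in only 1 of 15 alternative fits, and its log2 difference was -0.003 without DMSO replicate 2 (limma adjusted p = 0.984). STK3 and STK4, the kinases that activate LATS1 and LATS2, had log2 differences of -0.24 (95% interval from -0.46 to -0.02, limma adjusted p = 0.236) and -0.10 (95% interval from -0.23 to 0.03, limma adjusted p = 0.413). Without DMSO replicate 1, the highest vehicle library for both, these log2 differences were smaller, -0.13 and -0.05. The groups overlapped for STK3, while for STK4 the drug-treated libraries were all slightly below the vehicle libraries. LATS1, the paralog of LATS2, had 1388 ± 94.3 normalized counts in DMSO and 1371 ± 76.3 in YK (SD, n = 3 each), a log2 difference of -0.02 with a 95% interval from -0.17 to 0.14 (limma adjusted p = 0.929), and of 0.03 without DMSO replicate 1. MAP4K4, an activator of LATS kinases and the core gene with the highest mean, had a log2 difference of 0.02 with a 95% interval from -0.09 to 0.14 (limma adjusted p = 0.862), and of 0.04 without DMSO replicate 1.

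Upstream regulators carry cell contact and polarity signals to the cascade. Of the 20 genes 19 were tested, and limma called 1 higher and 0 lower, with 2 higher and 3 lower at an unadjusted p under 0.05 and a median log2 difference of -0.02, or -0.04 without DMSO replicate 1. It called 3 higher and 3 lower without DMSO replicate 1. The higher ones were FAT4 and, named after their values were seen, FRMD6 and WWC2, which had log2 differences of 0.22 and 0.09 with all libraries (limma adjusted p = 0.122 and 0.531) and 0.27 and 0.14 without that library (limma adjusted p = 0.00178 and 0.0497). FRMD6 was above its vehicle libraries in every drug-treated library and also passed with the GC and length trend removed (limma adjusted p = 0.00250). WWC2 passed in only 1 of 15 alternative fits, and its log2 difference was 0.05 without DMSO replicate 2 (limma adjusted p = 0.752). The gene called with all libraries was FAT4, an atypical cadherin, with 326.6, 357.7 and 320.6 normalized counts in DMSO replicates 1, 2 and 3 and 451.6, 401.0 and 433.2 in YK replicates 1, 2 and 3. Its drug-treated libraries were all above its vehicle libraries, with a log2 difference of 0.35 ± 0.09 (standard error, limma adjusted p = 0.0492), or 0.34 without DMSO replicate 1. This call was at the edge of the threshold, since 9 of 15 alternative fits lost it, and limma's adjusted p-values in the 15 fits ran from 0.00427 to 0.269. It was lost without DMSO replicate 3 or YK replicate 1, 2 or 3, at limma adjusted p-values of 0.139, 0.269, 0.129 and 0.194. NF2 (merlin), a membrane-linked activator of the cascade, had a log2 difference of 0.03 with a 95% interval from -0.11 to 0.17 (limma adjusted p = 0.828), and of -0.01 without DMSO replicate 1. LLGL1, a polarity protein with the highest mean of the list, was at 6549 ± 275.8 in DMSO and 5879 ± 213.6 normalized counts in YK, below in every drug-treated library. It did not pass with all libraries (log2 difference -0.16, limma adjusted p = 0.161) and passed without DMSO replicate 1 (log2 difference -0.19, limma adjusted p = 8.05e-04) and with the GC and length trend removed (limma adjusted p = 0.00413), with a range over all alternatives from 8.05e-04 to 0.469.

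The list of other published YAP1 and WWTR1 targets had 15 genes, of which 13 were tested, 2 were higher and 0 lower in limma's fit, and 4 were higher and 0 lower at an unadjusted p under 0.05. Its median log2 difference was 0.12, or 0.07 without DMSO replicate 1, when again 2 were called higher and 0 lower. CCDC80, a secreted matrix-associated protein, had 341.7, 385.7 and 377.4 normalized counts in DMSO replicates 1, 2 and 3 and 522.7, 540.1 and 512.3 in YK replicates 1, 2 and 3. MYOF (myoferlin), a membrane protein of myoblast fusion and membrane repair, had 314.0, 283.8 and 297.2 in the DMSO libraries and 411.3, 429.2 and 406.2 in the YK libraries, in the same order. For both genes the groups were well apart. CCDC80 rose by 0.51 ± 0.08 on the log2 scale (standard error, limma adjusted p = 0.00741, range over 15 alternatives from 1.77e-05 to 0.0842), and MYOF by 0.48 ± 0.09 (limma adjusted p = 0.0117, range from 1.83e-05 to 0.101). These values were 0.46 for CCDC80 and 0.52 for MYOF without DMSO replicate 1. Both lost their calls without YK replicate 1, 2 or 3, at adjusted p-values of 0.0842, 0.0781 and 0.0576 for CCDC80 and 0.101, 0.0976 and 0.0753 for MYOF in limma's fit, and with eBayes run without a trend (limma adjusted p = 0.0755 for each). PTPN14, a phosphatase that binds YAP1 and had the highest mean of the list, was at 3690 ± 123.6 in DMSO and 4045 ± 183.5 normalized counts in YK, above in every drug-treated library, with a log2 difference of 0.13 that did not pass (limma adjusted p = 0.2496) and was 0.12 without DMSO replicate 1.

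Relatives of the 10 genes were mostly too low to test. Of the 4 other CCN genes listed, CCN4 was the only one tested, at 12.1 ± 2.05 in DMSO and 18.5 ± 5.76 normalized counts in YK (SD, n = 3 each), with overlapping groups (log2 difference 0.55, or 0.43 without DMSO replicate 1, limma adjusted p = 0.412). Without YK replicate 3 the CCN4 log2 difference was 0.32. Of the 4 genes of the TAM receptors and their ligands listed beside AXL, 3 were tested, and limma called 0 higher and 0 lower, also at an unadjusted p under 0.05. TYRO3, the TAM relative with the highest mean, was at 1165 ± 61.6 in DMSO and 1060 ± 10.9 normalized counts in YK, below in every drug-treated library (log2 difference -0.14, limma adjusted p = 0.303). Without DMSO replicate 1 it passed (log2 difference -0.18, limma adjusted p = 0.0183), as it did with the GC and length trend removed (limma adjusted p = 0.0449), in a range over all alternatives from 0.0183 to 0.584. ANKRD2 and ANKRD23, the relatives of ANKRD1, had means of 8.08 and 5.46 normalized counts over all libraries and were not tested. ANKRD2 ranged from 5.01 to 6.30 normalized counts in DMSO and from 10.0 to 10.9 in YK, and the groups overlapped for ANKRD23.

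**Figure D5:**
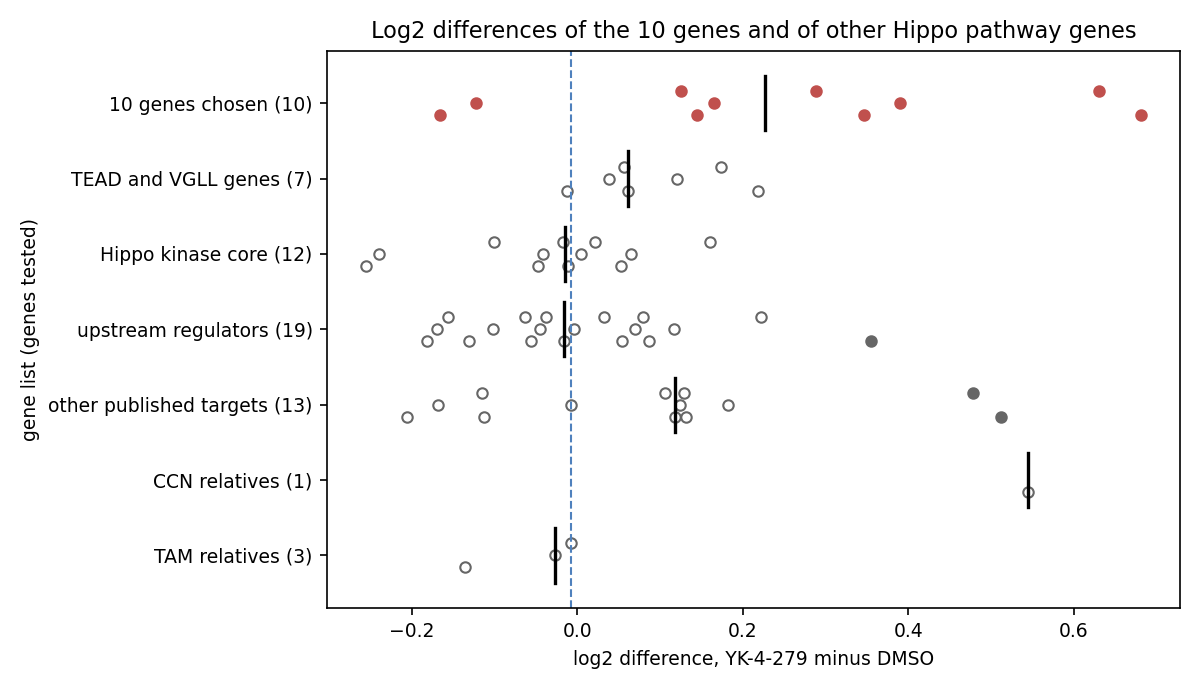
Log2 differences between YK and DMSO (horizontal axis) of the 10 genes (red) and of 55 other tested pathway genes by list (grey, filled where limma's adjusted p was under 0.05), with a black bar at each list's median and a dashed line at the median of all genes tested. The filled grey points are FAT4 among the upstream regulators and MYOF and CCDC80 among the other published targets.

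The genes whose normalized counts followed CCN2 most closely were sought among 10698 genes with a mean of at least 100, by Pearson correlation over all 6 libraries, DMSO replicate 1 included, on the log2 scale. Among the 5 highest were CCDC80 (r = 0.997), MUL1, a mitochondrial ubiquitin ligase (r = 0.996), KIF1A, a kinesin motor (r = 0.994), and ABL2, a tyrosine kinase (r = 0.991). The 6 libraries form 2 treatment groups, so such a correlation mostly follows the difference between the groups. Over the same libraries and scale, the correlation with CCN2 was 0.983 for ANKRD1, 0.967 for CCN1, 0.960 for AMOTL2 and 0.921 for AXL. It was lower for AJUBA (0.838), LATS2 (0.836) and CRIM1 (0.699), and negative for YAP1 (-0.816) and WWTR1 (-0.790).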

How the data were processed

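RNA of 6 Rh30 libraries was sequenced. Per the labels and the study's methods, the authors aligned reads to hg38 with STAR 2.7.9a, counted them per gene and used DESeq2 1.44.0; whether counting used strand is not given in the sources used here. What they deposited is a signal: normalized counts, scaled per library. Of 35269 rows, 1 without a gene name, with at most 6 times the smallest value, was left out. The 10 genes and all lists were chosen with earlier results of these data known. Log2(normalized count + 1) was fitted in limma 3.58.1 (R 4.3.3, lmFit and eBayes with trend) for 13930 genes with a mean of at least 10, two-sided, with Benjamini-Hochberg adjustment. A pseudocount understates changes of low genes. Of each other list, the gene with the highest mean and up to 3 with the largest differences are named (adjusted p under 0.05, mean of at least 100, groups apart), with TEAD1 to TEAD4, VGLL4, LATS1, NF2, STK3, STK4 and 5 genes most like CCN2, of which 1 is not reported here. Exon lengths are from GENCODE 44 and promoters from RefSeq. The code was tested on simulated data.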

Additional observations from a re-analysis of the deposited data

How the results depend on the processing

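The median log2 difference of the 10 genes stayed between 0.20 and 0.27 over 15 alternative fits, and 8 of the 10 log2 differences were positive in each of them. The genes were chosen from these same libraries, so nothing is read from this. Of the 10 genes, 4 were called higher in the fit used throughout. This count was 2 with eBayes without trend, 0 without YK replicate 1 or 2, and 6 without DMSO replicate 1. The number called among all genes also moved, and other causes than the construction of each fit were not tested. Against 176 higher and 299 lower, eBayes without trend called 30 and 3, a fit with the smooth dependence on GC content and exon length taken out of each library (98.4% of genes tested had both values) called 557 and 1053, and quantile normalization called 145 lower. Leaving out 1 library gave between 15 and 644 genes higher and between 4 and 1179 lower. Of the other pathway genes, 3 higher and 0 lower with all libraries, leaving out 1 library gave between 0 and 7 higher and between 0 and 5 lower, eBayes without trend called 0 higher, the fit without the GC and length trend called 6 higher and 5 lower, and a pseudocount of 10 or a mean of at least 100 called 1 lower. Of the 8 genes with a promoter, 4 had a TEAD motif in the full window and 3 in the 250 bases before the start, where 11.9% of all promoters and 9.34% of those of genes tested had one.

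With the replicate number as a replicate block, limma called 79 genes higher and 101 lower, and 2 other pathway genes higher. Deviations from the group means of libraries with the same number correlated at -0.0985, -0.0269 and -0.0267, and those with different numbers at -0.0593 to 0.0897. The labels do not say whether the numbers pair the libraries, and these values cannot settle it. The planned count-model tests were not run. In each library 100% of values, divided by its smallest value above 0, were within 0.001 of a whole number, but in DMSO replicate 2 and YK replicate 3 that value was 0.999 and 1.0005, too near 1 for the check applied to recovered reads.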

Other observations

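The comparison rests on 1 cell line, 1 dose and 1 time point, with 3 libraries per group. RNA levels do not show the phosphorylation or location of YAP1 and WWTR1 proteins, which were not measured here. Since the 10 genes were chosen from the same libraries, their differences are no independent measurement, and no other set of libraries was analysed here. Leaving out any of the 6 libraries changed the number of genes called. COL1A1, 1 of 5 fibroblast markers, was called higher with all libraries. PDGFRA was called in some alternative fits, as were FGFR4, CDH15 and FOXO1 from the list of muscle and rhabdomyosarcoma markers. The part of these markers in the values of CCN1 and CCN2 was not tested.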
